A study of Mus musculus with 8 samples.

Results

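The genes of heme synthesis and iron uptake were followed through 2 progenitor fractions of mouse bone marrow. The 9 genes were chosen by symbol and ordered by their step in the pathway: the enzymes Alas2, Alad, Uros, Urod, Cpox, Ppox and Fech, the transferrin receptor Tfrc and the mitochondrial iron importer Slc25a37. They are part of 20887 genes with a probe on the array, and each was read from its brightest probe. All 9 had a probe, and 8 were well above background on all 8 arrays. Alas2 was above background on 0 of 8.

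Heme is an iron-carrying ring that is built partly in the mitochondrion and partly in the cytosol. The pathway starts with the condensation of glycine and succinyl-CoA by 5-aminolevulinate synthase and ends with the insertion of iron by ferrochelatase. Developing red cells make far more heme than other cells: they use their own form of the starting enzyme, Alas2, and take up transferrin-bound iron through Tfrc. Transcription factors of the GATA family are known to bind in control regions of several of these genes, and the mRNAs of Alas2 and Tfrc are known to be regulated by iron through iron-responsive elements.

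Marrow of the C57BL/6 strain carried an inducible Cre recombinase (Cre-ERT2) in all groups, controls included. Its recipients were CD45.1+ wild-type mice after lethal irradiation. The 4 genotypes are called WT (Cre-ERT2 alone), Ezh2Δ/Δ (from Ezh2flox/flox;Cre-ERT2), JAK2V617F (with Cre-ERT2) and JAK2V617F/Ezh2Δ/Δ, the double mutant. Ezh2, the methyltransferase subunit of the polycomb complex PRC2, was deleted 4 weeks after transplantation, and at 2 months the LSK fraction, which holds the stem cells, and the MEP fraction, the megakaryocyte and erythroid progenitors, were sorted. JAK2V617F is the activated kinase of myeloproliferative neoplasms. The promoter that drives it, the age of the mice and the number of animals behind a sample are not given in the sources used here. The 20 ng of RNA of each of the 8 groups went onto 1 array with 1 dye, Cy3. No group had a second array, so every p-value below rests on the spread between matched pairs of arrays that a fit leaves. Such spread may be technical, and interactions of cell type and genotype left out of a fit count as spread too. The fits (limma) also draw the variance of each gene toward that of all genes tested.

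All 8 arrays lay on 1 slide, with the cell type in the rows and the genotype in the columns, so that slide position and group cannot be told apart. Between 39.8% and 48.8% of the 55681 probes were well above background on an array, and the number of arrays limits the precision. Xist was at 1.39 to 2.85 on the 4 Ezh2-deleted arrays and at -5.47 to -3.23 on the 4 others, and the Y-linked Eif2s3y lay the other way, so that marrow sex and Ezh2 status cannot be told apart. The Ezh2 probe was above background on all 8 arrays (3.20 to 4.04), and the exon it reads is not given in the sources used here. In the marker lists, the stem cell genes summed to 309 to 413 in LSK and 37.7 to 63.3 in MEP, and the erythroid genes to 40.5 to 52.2 in LSK and 419 to 803 in MEP, each in units of the array's 75th percentile. Of the 10 stem cell genes, 6 or 7 were above background on each MEP array, while Flt3, Mecom and Procr were below it on all 4. In bulk RNA, fewer cells of a type and less RNA per cell cannot be told apart.

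Upstream sequence was available for 7 of the 9 genes, from RefSeq on build GRCm38.p6, as 10 windows of 250 bases before a transcription start. The 4 shown are of genes that stand out in the results below. Cpox had the largest difference between the fractions, and Alas2 was not detected. Uros had the widest spread among MEP arrays of the enzymes, and Tfrc the widest among LSK arrays. Capitals mark the motif searched on both strands, GATA with A or T before it and A or G after it; on the strand shown, all matches are of its reverse complement. The windows are chr16:58669958-58670207 (+ strand) for Cpox, chrX:150547167-150547416 (+) for Alas2, chr7:133702501-133702750 (- strand) for the more downstream of 2 Uros starts and chr16:32608646-32608895 (+) for the more upstream of 2 Tfrc starts.
Cpox: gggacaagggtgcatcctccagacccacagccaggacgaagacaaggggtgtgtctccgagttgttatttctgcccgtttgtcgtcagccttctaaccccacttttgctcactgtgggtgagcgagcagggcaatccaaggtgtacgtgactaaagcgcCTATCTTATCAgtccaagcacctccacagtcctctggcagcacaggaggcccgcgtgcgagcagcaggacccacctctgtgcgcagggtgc
Alas2: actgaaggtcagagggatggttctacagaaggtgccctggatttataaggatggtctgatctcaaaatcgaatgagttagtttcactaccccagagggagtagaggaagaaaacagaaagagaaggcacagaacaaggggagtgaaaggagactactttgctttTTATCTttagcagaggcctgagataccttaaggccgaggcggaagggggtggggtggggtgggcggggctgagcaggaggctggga
Uros: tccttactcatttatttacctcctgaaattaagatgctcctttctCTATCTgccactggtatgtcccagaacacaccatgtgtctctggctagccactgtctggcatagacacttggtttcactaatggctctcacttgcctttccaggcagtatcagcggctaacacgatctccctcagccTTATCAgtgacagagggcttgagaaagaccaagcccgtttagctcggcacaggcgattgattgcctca
Tfrc: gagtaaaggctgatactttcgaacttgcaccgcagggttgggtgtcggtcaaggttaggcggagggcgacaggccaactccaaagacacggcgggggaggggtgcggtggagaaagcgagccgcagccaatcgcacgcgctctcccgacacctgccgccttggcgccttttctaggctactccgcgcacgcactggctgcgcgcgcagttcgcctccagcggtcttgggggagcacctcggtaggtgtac

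The Cpox window held 2 GATA hexamers, which share 1 base and span -91 to -81 relative to the start. Alas2 had 1, at -86 to -81, and the Uros window 2, at -205 to -200 and at -68 to -63. The more upstream Uros start and both windows of Tfrc and of Alad, and those of Urod and Ppox, held 0. Hexamers were thus in 3 of the 10 windows, and all 3 are among the 4 shown. Of all 32851 promoter windows of this length 26.5% held at least 1 such hexamer and 6.4% held 2 or more. CCAAT, searched on both strands, occurred 4 times before the Ppox start, at -114, -98, -74 and -45, and 33.8% of all windows held it at least once. The looser motif CCNCNCCCN, of the kind bound by Krüppel-like factors, was in 45.8% of all windows and occurred 2 or more times in 27.2%. It occurred 4 times before Alas2, 4 and 2 times before the Alad starts and 3 and 2 times before the Tfrc starts. Before the Uros starts it occurred 1 and 0 times, and before Cpox, Urod and Ppox 0 times. These are matches of letters only, and no binding was measured.

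Levels are log2 signal minus the 75th percentile of the array, so that 0 is the signal that 75% of the spots on that array stay below. Levels of different genes come from different probes and are not compared with each other. Differences are on the log2 scale, with the standard error (SE) of the limma fit and a p adjusted by Benjamini-Hochberg over the 13183 genes tested. A gene was called at an adjusted p under 0.05.

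**Figure D1:**
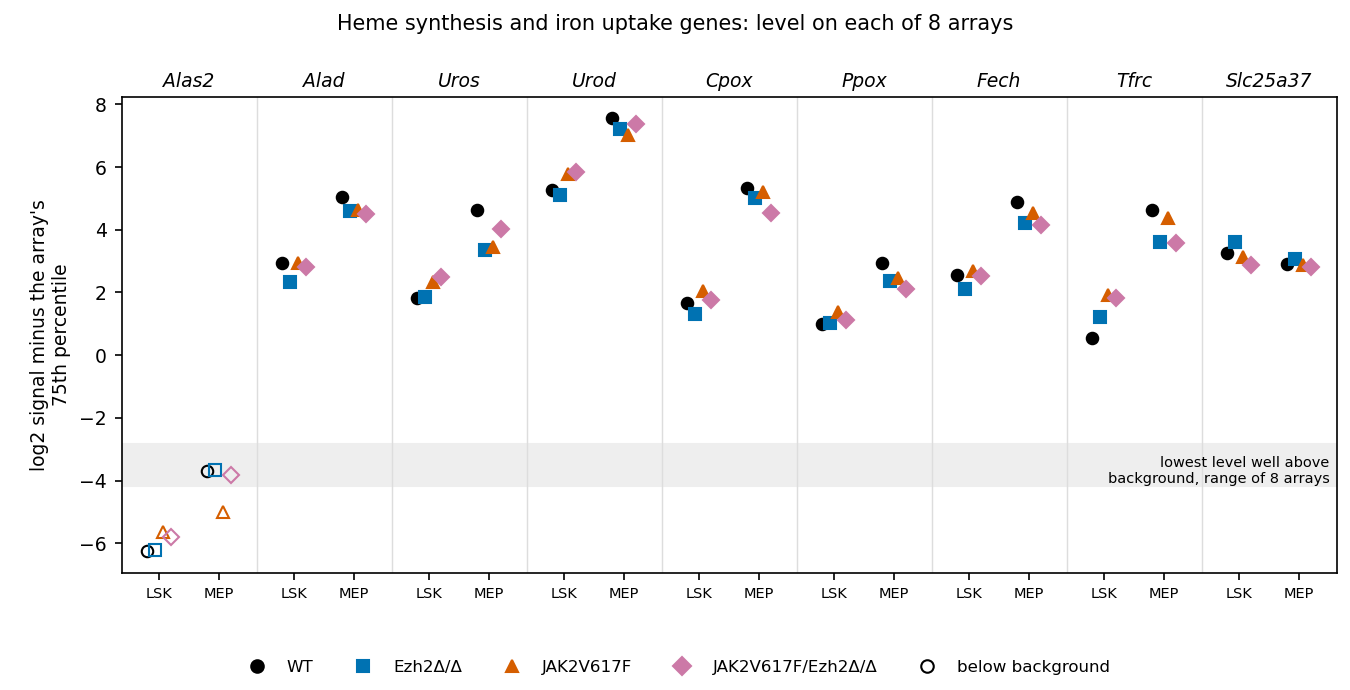
Level of each gene (log2 signal minus the array's 75th percentile) on each of 8 arrays, with LSK at the left and MEP at the right of each panel and the genotype given by colour and shape. Open symbols are arrays where the probe was not well above background, and the grey band is the range over arrays of the lowest level called above background. On all 4 MEP arrays 7 genes sit higher than on all 4 LSK arrays, Slc25a37 overlaps, and Alas2 lies below background throughout.

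MEP stood above LSK in every enzyme of the 9 genes that was measured. The 6 enzymes measured, Alad, Uros, Urod, Cpox, Ppox and Fech, and the receptor Tfrc were all called higher in MEP, by 1.33 to 3.33 on the log2 scale. The importer Slc25a37 was the exception among the 8 genes measured, with a level slightly lower in MEP and no call. For comparison, 20.7% of all genes tested were called higher in MEP and 41% were called in either direction. In each of the 7 genes the 4 MEP arrays all lay above the 4 LSK arrays, as they did for 18.8% of all genes. The median difference was 1.87 over the 6 enzymes and 0.12 over all genes.

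Alas2 encodes the erythroid form of the starting enzyme, and its mutation causes X-linked sideroblastic anemia. Its processed signal was 4.57, 4.97, 5.32 and 5.0 in LSK of WT, Ezh2Δ/Δ, JAK2V617F and double mutant, where the lowest signal well above background was 19.4 to 23.0. In MEP it was 18.6, 17.2, 8.28 and 16.6, against a lowest signal above background of 26.1 to 32.2. No array of either fraction therefore measured it, no fold is given, and the single probe does not show that the mRNA was absent. When genes were tested with no filter on dim probes, a difference of 1.93 passed (limma, adjusted p = 0.00529), although all of its values were below background.

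Alad forms the pyrrole porphobilinogen in the second step. Its LSK levels were 2.93 in WT, 2.34 in Ezh2Δ/Δ, 2.94 in JAK2V617F and 2.80 in the double mutant, and its MEP levels were 5.05, 4.61, 4.62 and 4.51 in the same order. The fractions were parted by a gap of 1.57 between the lowest MEP and the highest LSK array. The difference was 1.95 (SE 0.18, n = 4 against 4, limma adjusted p = 1.4e-04), which is 3.85-fold.

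Uros closes the ring in the fourth step. The LSK arrays had 1.81, 1.85, 2.32 and 2.48, and the MEP arrays 4.62, 3.35, 3.45 and 4.02, in the order WT, Ezh2Δ/Δ, JAK2V617F and double mutant. The groups did not overlap, but the WT MEP array stood above the other MEP arrays, and Uros had the largest SE among the enzymes. The difference of 1.74 (SE 0.32, n = 4 against 4, limma adjusted p = 0.00432) was 1.36 without the WT MEP array and was still called.

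Urod, which trims the side chains of the ring to give coproporphyrinogen, was at 5.27, 5.10, 5.79 and 5.83 in LSK and at 7.56, 7.22, 7.01 and 7.37 in MEP. It rose by 1.79 (SE 0.22, limma adjusted p = 6.7e-04), or 3.46-fold. The steps within one genotype ranged from 1.21 in JAK2V617F to 2.29 in WT.

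Cpox acts back in the mitochondrion, on coproporphyrinogen, and had the largest difference of the 8 genes. Its LSK levels were 1.66, 1.32, 2.04 and 1.77, and its MEP levels 5.33, 5.0, 5.22 and 4.55. The lowest MEP array lay 2.51 above the highest LSK array. The difference of 3.33 (SE 0.19, n = 4 against 4, limma adjusted p = 1.9e-05) has a 95% interval of 7.38-fold to 13.7-fold.

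Ppox makes the fully conjugated protoporphyrin in the step before iron insertion and had the smallest difference of the genes called. It was at 1.00, 1.03, 1.39 and 1.13 in LSK and at 2.94, 2.36, 2.47 and 2.11 in MEP. Its change of 1.33 (SE 0.19, limma adjusted p = 0.00131) corresponds to 2.52-fold.

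Fech inserts the iron. Its LSK levels of 2.57, 2.12, 2.70 and 2.53 and MEP levels of 4.88, 4.23, 4.54 and 4.16 did not overlap. Fech rose by 1.97 (SE 0.17, limma adjusted p = 1.2e-04), or 3.93-fold.

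Tfrc, the receptor that brings transferrin-bound iron into the cell, had the second largest difference and the widest spread among LSK arrays. It was at 0.54 in WT LSK, 1.21 in Ezh2Δ/Δ LSK, 1.92 in JAK2V617F LSK and 1.83 in double mutant LSK. In MEP the 4 levels were 4.64, 3.62, 4.39 and 3.58. The WT array was thus the lowest of the LSK arrays and the highest of the MEP arrays, and the step between fractions went from 4.10 in WT to 1.76 in the double mutant. Over all 4 pairs the difference was 2.68 (SE 0.34, n = 4 against 4, limma adjusted p = 7.8e-04), or 6.43-fold with a 95% interval of 3.69-fold to 11.2-fold. Both other Tfrc probes gave close values, 2.60 and 2.53.

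Slc25a37, also called mitoferrin-1, carries iron into the mitochondrion and is known for its part in red cell heme synthesis. Its LSK levels were 3.27, 3.61, 3.14 and 2.89 and its MEP levels 2.92, 3.08, 2.87 and 2.80, so the fractions overlapped. The difference was -0.31 (SE 0.16, 95% interval -0.69 to 0.07, limma adjusted p = 0.159). On this probe its upper bound lies below the lower bounds of the 7 genes called, the lowest of which is 0.89 for Ppox. A second, dimmer probe gave 0.06 and another pattern: it was at -1.65, -1.12 and -1.47 in LSK of the first 3 genotypes but -0.09 in the double mutant, and at -1.57, -1.31 and -1.47 in MEP but 0.25 in the double mutant. The probes thus disagreed on the double mutant, where the brighter probe was at its lowest within each fraction.

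**Figure D2:**
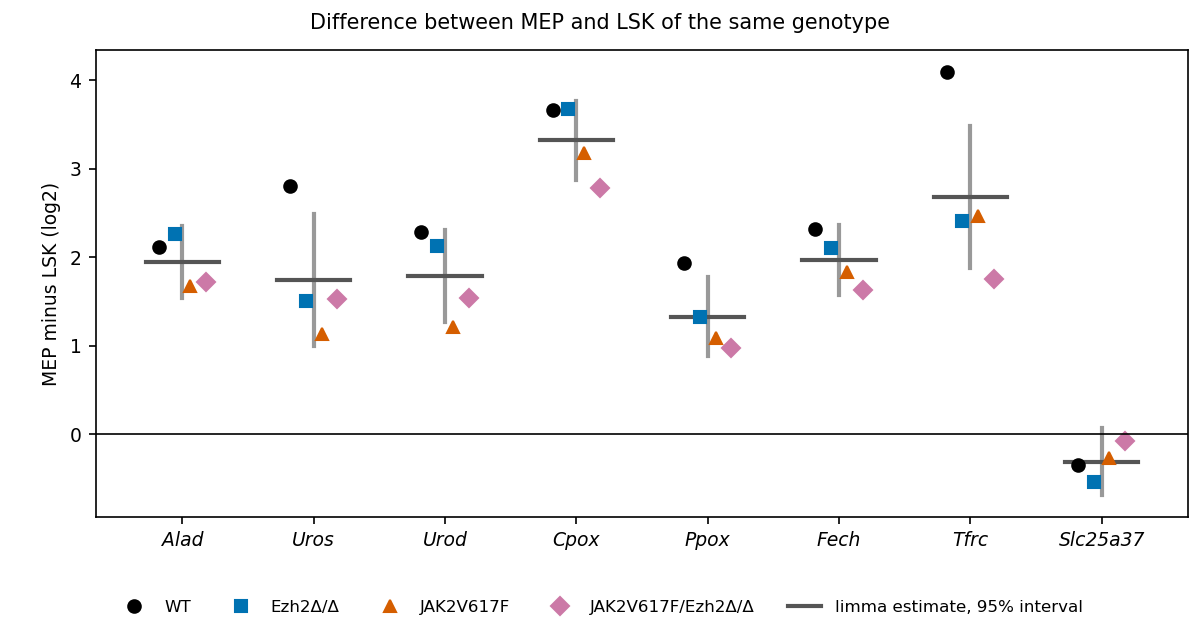
Difference in level between MEP and LSK (log2) within each genotype, with the limma estimate as a horizontal bar and its 95% interval as a vertical line. WT has the largest step in Uros, Urod, Ppox, Fech and Tfrc, and every step of Slc25a37 lies below 0, from -0.54 to -0.08.

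Other genes of heme and iron metabolism are given by role. The lists named here are small, and their counts are given beside the 20.7% of all genes called higher and the 20.3% called lower. Of the 2 forms of the starting enzyme, Alas1, the one used by most tissues, was above background on all 8 arrays. Its LSK levels were 4.37, 3.71, 6.20 and 4.40 and its MEP levels 3.55, 3.59, 3.86 and 3.43. The JAK2V617F LSK array stood above all others, and 1 LSK array, Ezh2Δ/Δ, lay within the MEP range. Alas1 was lower in MEP by 2.08-fold (log2 difference -1.06, SE 0.35, limma adjusted p = 0.0455). The call was lost on leaving out any array but Ezh2Δ/Δ MEP, and the difference was -0.64 without the JAK2V617F LSK array (adjusted p = 0.0564). A dimmer Alas1 probe gave -0.41.

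Mitochondrial proteins that supply or support heme synthesis were mostly called higher: 8 of 10 measured, and 0 lower, with a list median of 0.93. Abcb6, a porphyrin transporter, rose by 2.30 (SE 0.26, limma adjusted p = 4.1e-04). Slc25a38, the glycine carrier that feeds the first step, rose by 1.97 (SE 0.20), Tmem14c, which helps to bring protoporphyrinogen into the matrix, by 1.61 (SE 0.29), and Abcb10, a partner of Slc25a37 in the inner membrane, by 1.57 (SE 0.18). The widely expressed iron importer Slc25a28, or mitoferrin-2, was at 2.24 to 2.57 in LSK and 2.29 to 2.73 in MEP, a difference of -0.02 (SE 0.16, adjusted p = 0.926). Neither mitoferrin was thus called in either direction. Without the WT LSK array 5 genes of this list were called.

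Of the genes of iron uptake, storage and export, 6 of 13 measured were called higher and 3 lower. With genotype as a 4-level block, so that LSK and MEP are compared within a genotype, 4 were called higher. It was 4 as well with the percentile over probes above background on all arrays and without any 1 of 5 arrays, namely WT and Ezh2Δ/Δ of either fraction and the double mutant LSK, and the 4 genes named next kept their calls in each. Those called higher included proteins that act beside Tfrc in the endosome. Steap3, which reduces iron there, rose by 2.49 (SE 0.22, limma adjusted p = 1.2e-04), and Slc11a2, the transporter that releases iron to the cytosol, by 2.39 (SE 0.22). Tfr2, the second transferrin receptor, rose by 1.40 (SE 0.17, adjusted p = 6.2e-04). The iron exporter Slc40a1, ferroportin, was at 3.14, 2.35, 2.45 and 1.86 in MEP and at -2.50, -3.12, -3.87 and -4.16 in LSK, where only the first 2 of these arrays were above background. It rose by 5.86 (SE 0.19, adjusted p = 2.8e-06), or by 4.0 with normexp background correction. Lower in MEP were Trf, transferrin itself, which went from 5.72, 4.97, 5.80 and 5.01 in LSK to -0.09, 0.01, 0.27 and 0.09 in MEP (39.6-fold, adjusted p = 4.3e-06), and Hfe, the hemochromatosis protein that binds Tfrc, which was above background on 4 LSK and 0 MEP arrays (at least 12.7-fold, adjusted p = 6.5e-05). This bound takes each MEP array at the higher of the lowest signal above background on it and the probe's own, and it holds for the main background correction: with normexp the Hfe difference was -2.33, smaller than the bound. Ncoa4, which delivers ferritin for breakdown, fell by 1.22 (SE 0.16, adjusted p = 8.9e-04). The ferritin chains Fth1 and Ftl1 were not called (adjusted p = 0.145 and 0.0722).

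Iron sensing genes were mostly uncalled, with 1 of 5 higher. That gene was Eif2ak1, the heme-regulated kinase that restrains globin translation, with a change of 0.75 (SE 0.17, limma adjusted p = 0.0109). Ireb2, an iron regulatory protein that stabilises Tfrc mRNA when iron is low, was at -1.63 to -1.19 in LSK and -1.62 to -1.20 in MEP. The other, Aco1, differed by 0.44 (SE 0.20, adjusted p = 0.117) and was above background on 2 of 4 MEP arrays.

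Of 6 genes of heme breakdown and transport, 3 were called higher and 2 lower. Blvrb, the second biliverdin reductase, stood out at 6.99, 6.40, 6.28 and 6.68 in MEP against 1.81, 1.60, 1.77 and 2.17 in LSK, a 26.9-fold difference (limma adjusted p = 9.1e-06). Blvra rose by 0.96 (SE 0.23), a call lost without the Ezh2Δ/Δ LSK array (adjusted p = 0.0503), and the heme exporter Flvcr1 by 0.86 (SE 0.17). Both heme oxygenases, which open the ring, were called lower. Hmox2 fell by 0.71 (SE 0.16, adjusted p = 0.00957). Hmox1 was at 0.28 and -0.29 in WT and Ezh2Δ/Δ LSK, at -1.21 and -1.12 in the other LSK arrays, and at -1.65 to -1.23 in MEP. Its difference of -0.94 (SE 0.31, adjusted p = 0.0429) was no longer called under 9 other settings, and the mean of its probes gave -0.43 (adjusted p = 0.233).

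Fech needs an iron-sulfur cluster, and of 11 genes of cluster assembly 6 were called higher and 0 lower. Among them were Glrx5, a cluster carrier (1.77, SE 0.20, limma adjusted p = 4.5e-04), Lyrm4, a subunit of the cysteine desulfurase complex (1.43, SE 0.18), and Isca2 (1.04, SE 0.24). Among 8 erythroid transcription factors and their partners 6 were called higher. Klf1 rose by 6.07 (SE 0.42, adjusted p = 4.1e-05), or by 4.79 with normexp background correction, and was above background on 3 of 4 LSK arrays, while Gata1, Gfi1b and Zfpm1 rose by 3.23 (SE 0.33), 2.68 (SE 0.28) and 1.64 (SE 0.18).

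**Figure D3:**
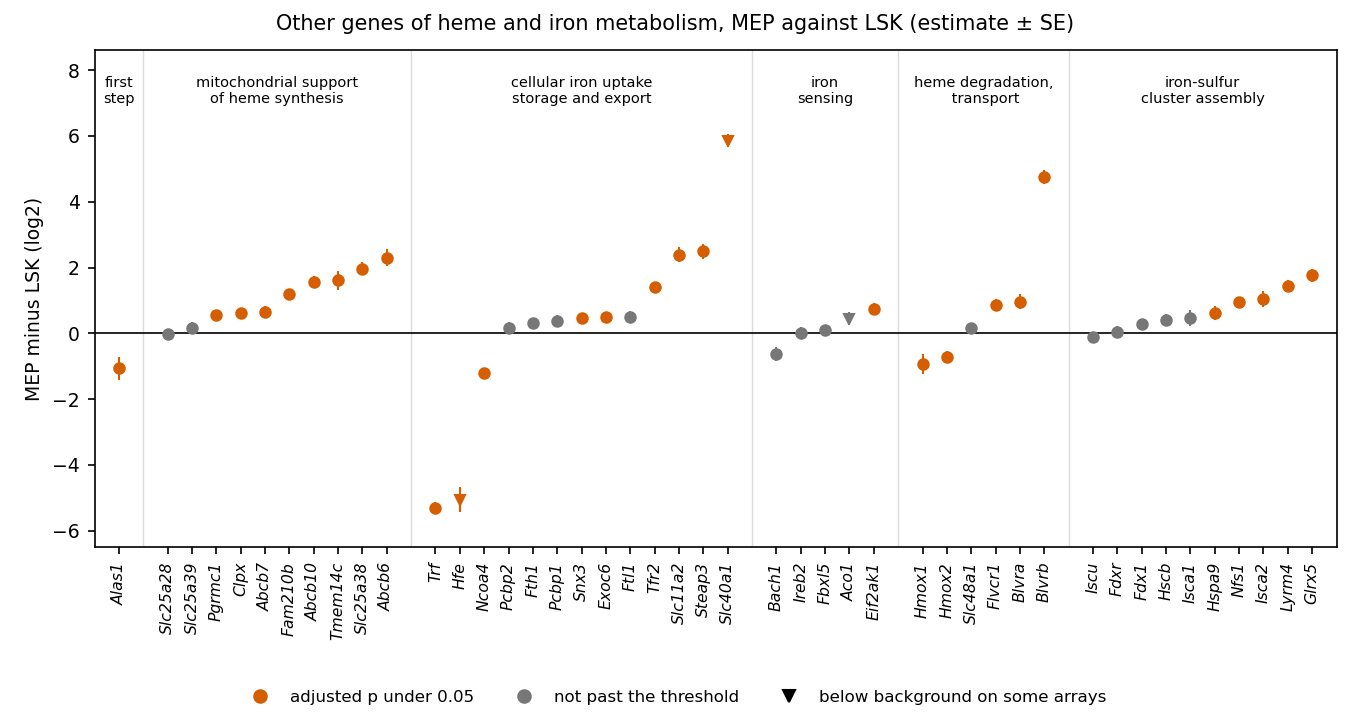
Difference between MEP and LSK (log2, limma estimate with SE) for other genes of heme and iron metabolism, grouped by role and ordered by size within a group. Orange marks an adjusted p under 0.05 and triangles mark genes below background on some arrays. Slc40a1 and Blvrb lie farthest above 0, and Trf and Hfe farthest below.

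No genotype effect was called for any of the 8 genes. With limma this held for the JAK2V617F effect and the Ezh2 deletion effect over all arrays, within LSK and within MEP, for the difference of each effect between the fractions and for the interaction of both genotypes, 9 comparisons in all. Few genes were called in them at all: 0.311% of all genes for JAK2V617F and 0.698% for Ezh2 deletion over all arrays, 0.159% and 0.152% for JAK2V617F within LSK and MEP, 0.144% and 0.539% for Ezh2 deletion, 0% and 0.00759% for the differences between fractions and 0% for the interaction. At an unadjusted p under 0.05 were Fech for Ezh2 deletion over all arrays (18.2% of all genes), Tfrc and Urod for JAK2V617F within LSK (17.9%), and Tfrc for Ezh2 deletion within MEP (13.1%) and for the difference between fractions of the JAK2V617F effect (11.5%) and of the Ezh2 effect (5.36%). These counts of 1 or 2 of 8 genes are near those shares. In the other comparisons 0 of the 8 passed, beside 11.1% of all genes for JAK2V617F over all arrays, 7.95% for it within MEP, 9.52% for Ezh2 deletion within LSK and 3.48% for the interaction. The values below are therefore descriptions, and a p that misses the threshold does not show that genotypes were alike.

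The JAK2V617F arrays had higher levels in LSK and lower levels in MEP, with no call. As means over both pairs, 7 of the 8 genes were higher within LSK and all 8 were lower within MEP, under each scaling tried. The median of all genes was 0.07 in LSK and -0.08 in MEP, with 56.2% of all genes positive in LSK and 59.5% negative in MEP. Tfrc differed most in LSK: JAK2V617F stood 1.38 above WT and the double mutant 0.62 above Ezh2Δ/Δ, a mean of 1.00 (SE 0.26, limma adjusted p = 0.195, unadjusted p = 0.0097). Both other Tfrc probes gave 1.49 and 0.97. In MEP the Tfrc difference was -0.14 (SE 0.26, adjusted p = 0.905). The effect in MEP minus that in LSK was -1.14 (95% interval -2.05 to -0.23, limma adjusted p = 0.388). On leaving out single arrays it ranged from -1.52 to -0.76, and it was -0.76 without the WT LSK array.

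The enzymes differed less than Tfrc. In LSK, Urod was higher with JAK2V617F by 0.52 and 0.74 in its 2 pairs (mean 0.63, SE 0.25, limma adjusted p = 0.279), Uros by 0.51 and 0.64, and Cpox by 0.38 and 0.44. Alad, Ppox and Fech had means of 0.23 to 0.27. In MEP the enzymes had means between -0.36 for Ppox and -0.20 for Urod, the smallest adjusted p being 0.792. These means rest on single arrays. Uros had pairs of -1.17 and 0.66 and Urod of -0.56 and 0.15, and the median over the 6 enzymes, -0.26, was -0.08 without the WT or without the JAK2V617F MEP array, with 2 enzymes then positive. Without either of the Ezh2-deleted MEP arrays it was -0.45. Slc25a37 was lower with JAK2V617F in all 4 pairs, by a mean of -0.30 (SE 0.16, adjusted p = 0.557), whereas its dimmer probe had means of 0.60 in LSK and 0.83 in MEP. Granulocyte marker genes differed with JAK2V617F too. In LSK the 8 granulocyte markers summed to 540 in WT, 361 in Ezh2Δ/Δ, 1730 in JAK2V617F and 629 with both. Mpo made the largest part of each LSK sum, at 8.95, 8.31, 10.51 and 9.0. Among LSK arrays S100a8, S100a9 and Camp were highest in the double mutant, and the rest of the list in JAK2V617F. The same sums for MEP were 20.8, 41.9, 147 and 267. The 10 erythroid markers with a probe summed in LSK to 52.2, 40.5, 40.7 and 50.7. Car2 made the largest part of this sum, at 5.22, 4.95, 4.30 and 4.76, and was lower with JAK2V617F. Members of the list moved both ways: Gata1 was at 3.28, 2.49, 3.95 and 4.11 and Epor at 0.64, -0.20, 1.04 and 1.45, both higher with JAK2V617F. The part of granulocytic and erythroid cells in the differences was not tested.

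The Ezh2-deleted arrays had slightly lower enzyme levels on average, with no call. Over all arrays the 6 enzymes had negative differences, from -0.41 for Fech to -0.03 for Urod with a median of -0.31, beside a median of -0.10 over all genes, of which 60.6% were negative. Fech was lower in all 4 pairs, by 0.45 and 0.65 against WT in LSK and MEP and by 0.16 and 0.37 on the JAK2V617F background (mean -0.41, SE 0.17, limma adjusted p = 0.27). Cpox was lower in all 4 pairs as well (mean -0.40, SE 0.19, adjusted p = 0.3), and so was Alad (-0.32, SE 0.18). Urod, Uros and Ppox had pairs of both signs. Uros was higher in 3 of 4 pairs, and its mean was negative through the pair of Ezh2Δ/Δ and WT in MEP (-1.26). Without the WT MEP array the median was -0.19, with 4 of the 6 enzymes negative. With the percentile taken over probes above background on all arrays it was -0.18, again with 4 negative, and 5 were negative with quantile normalization and without the Ezh2Δ/Δ LSK, JAK2V617F LSK or Ezh2Δ/Δ MEP array. The 8 B cell markers summed in LSK to 15.0, 58.8, 19.7 and 18.7 and in MEP to 2.77, 45.8, 2.89 and 6.28, with Pax5 below background on every array. The part of these cells and of marrow sex in the differences was not tested.

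The Ezh2 deletion differences of Tfrc were unlike in the 2 fractions, with no call. In MEP the Ezh2Δ/Δ array was 1.02 below WT and the double mutant 0.81 below JAK2V617F, a mean of -0.91 (SE 0.26, limma adjusted p = 0.272, unadjusted p = 0.0142). Its other probes gave -0.82 and -0.74. In LSK the mean was 0.29 (SE 0.26), with pairs of 0.67 and -0.09. The effect in MEP minus that in LSK was -1.20 (95% interval -2.12 to -0.29, limma adjusted p = 0.742). On leaving out single arrays this contrast ranged from -1.58 to -0.82, the latter without the WT LSK array. It shares its WT arrays with the contrast for JAK2V617F, so the 2 are not separate observations. The probe used was printed 10 times on each array, and the SD of its log2 signal over those spots was 0.042 to 0.077. The spread between spots was therefore small beside the differences between arrays, but spots say nothing of the spread between animals.

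**Figure D4:**
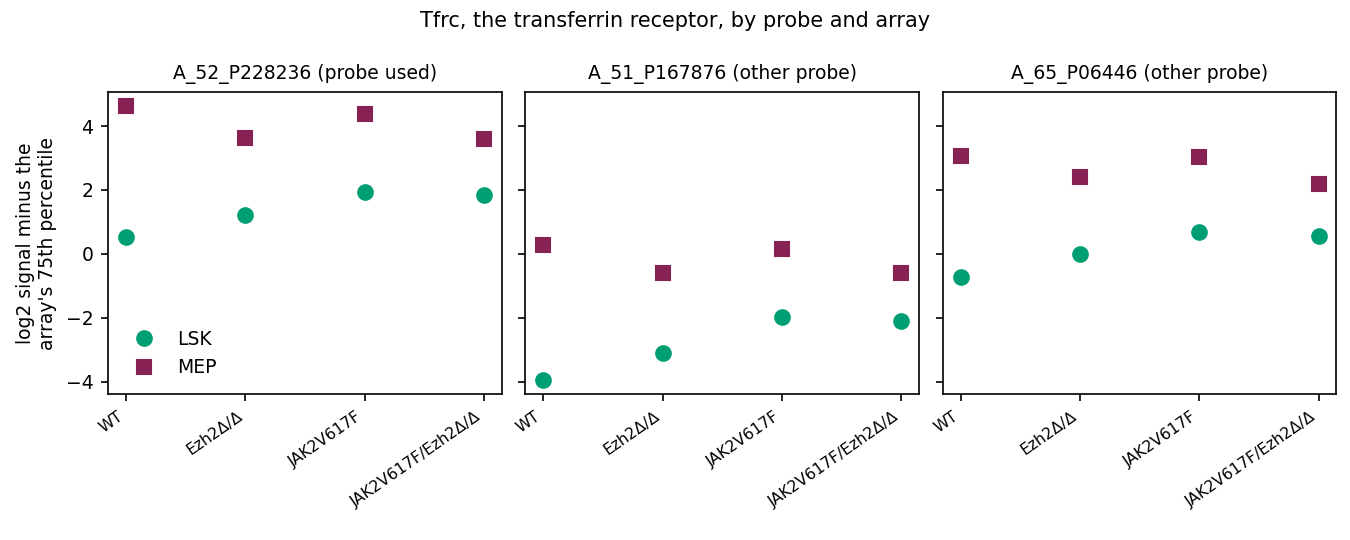
Tfrc level (log2 signal minus the array's 75th percentile) on the 8 arrays by each of its 3 probes, circles for LSK and squares for MEP. In LSK WT is the lowest and JAK2V617F the highest by each probe, and in MEP WT and JAK2V617F lie above both Ezh2-deleted arrays.

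Set against the WT array of the same fraction, the mutants lay differently in the 2 fractions. In MEP the WT array was the highest of 4 for 7 of the 8 genes, all but Slc25a37. It was so for 27.9% of all genes. The count was 6 under quantile normalization and with the percentile over probes above background on all arrays. The double mutant was the lowest MEP array for 6 genes, beside 46.2% of all genes, and under both of those scalings for 2. The median over the 8 genes against WT was -0.52 for Ezh2Δ/Δ, -0.39 for JAK2V617F and -0.66 for the double mutant, while all genes had medians of -0.07, -0.02 and -0.19. At least 2-fold lower than WT were Uros and Tfrc in Ezh2Δ/Δ (2.31% of all genes), Uros in JAK2V617F (3.76%) and Tfrc in the double mutant (5.45%).

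In LSK the WT array was the highest for 0 of the 8 genes, beside 23% of all genes, and JAK2V617F for 5, beside 37.9%. The JAK2V617F count was 3 under quantile normalization and 2 with the percentile over probes above background on all arrays. Tfrc alone was at least 2-fold above WT, in JAK2V617F (3.9% of all genes) and in the double mutant (6.03%). Each of these comparisons uses the same WT array and has 1 array a side, so they carry no test.

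**Figure D5:**
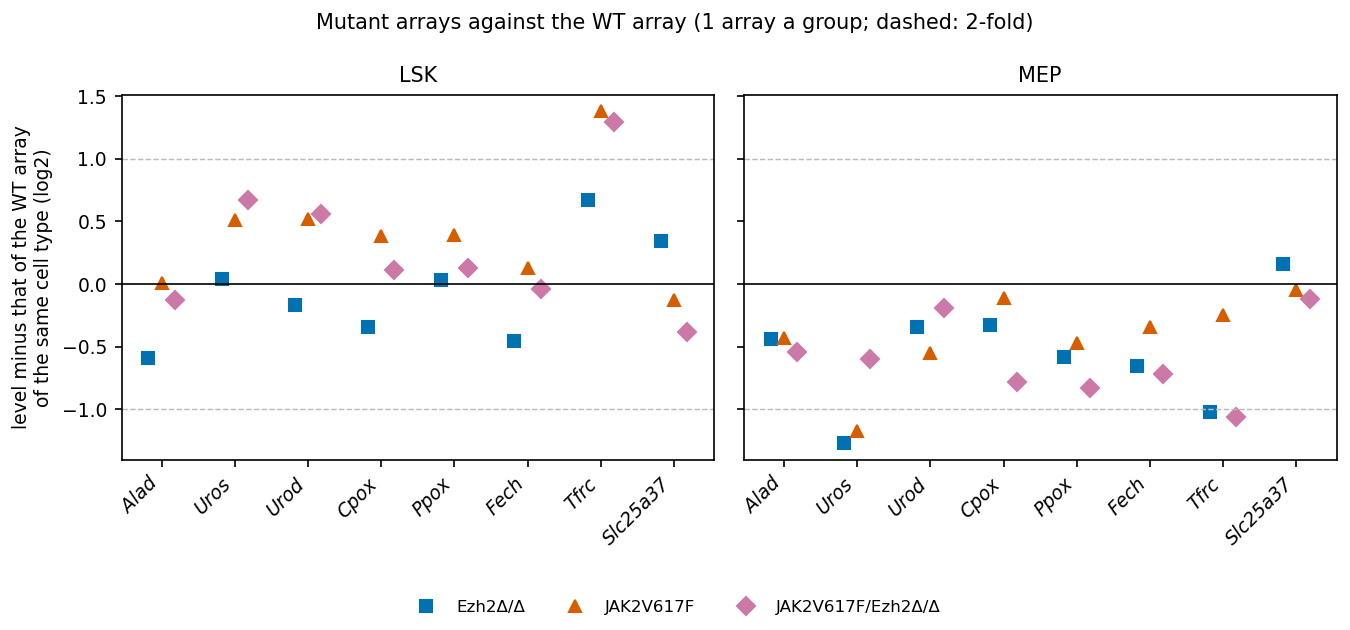
Level of each mutant array minus that of the WT array of the same fraction (log2), with LSK at the left and MEP at the right; dashed lines mark 2-fold. In MEP all points but Slc25a37 in Ezh2Δ/Δ lie below 0, and in LSK Tfrc lies highest.

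WT was also the highest MEP array for most erythroid markers, which are not enzymes of the pathway. The 10 erythroid markers summed to 803 in WT MEP, 600 in Ezh2Δ/Δ, 615 in JAK2V617F and 419 in the double mutant. WT was the highest array for 9 of the 10, beside 27.9% of all genes. The double mutant was the lowest for 7, beside 46.2% of all genes. Megakaryocyte markers summed to 314, 479, 124 and 111 on the same arrays. Pf4 made the largest part of each sum, at 7.96, 8.72, 6.56 and 6.57. In Ezh2Δ/Δ MEP, Itga2b, Gp5 and Vwf were lower than in WT, and the rest of the list was higher. Of the 7 megakaryocyte markers above background on all MEP arrays, WT was the highest for 2. Beside the 27.9% of all genes, WT was the highest MEP array for 8 of 10 genes of mitochondrial support, for 8 of 12 of iron uptake, storage and export, for 6 of 11 of cluster assembly and for 5 of 8 erythroid transcription factors. It was so for 3 of 6 genes of heme breakdown and transport and for 1 of 4 of iron sensing. All these counts of markers and lists were taken under the main scaling only. The part of the fraction's make-up in the differences between genotypes was not tested.

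Across the 8 arrays, each of the 6 enzymes and Tfrc followed the mean of the other genes closely, with Pearson's r from 0.944 for Uros to 0.991 for Fech, while Slc25a37 ran against it at -0.697. These correlations describe 8 arrays in 2 clusters, so the step between fractions makes most of them. With the mean of each fraction taken off, r was 0.908 for Ppox, 0.852 for Fech and 0.655 to 0.762 for the other enzymes and Tfrc. The genes most like the mean of the 8 genes, among 10476 above background on all arrays, were Slc25a38 (0.998), Car7, a carbonic anhydrase (0.998), Bloc1s5, a subunit of the organelle-sorting complex BLOC-1 (0.996), and Cela1, Fam241a and Ehd1 (0.995 each). Slc25a38 was at 2.26, 2.35, 2.75 and 2.67 in LSK and 4.85, 4.38, 4.51 and 4.15 in MEP, the same order of WT and double mutant in MEP as in Fech. With the fraction means taken off the most alike were Dnajc8 (0.977), Dap3 of the mitochondrial ribosome (0.975), Adpgk, an ADP-dependent glucokinase (0.969), Toe1 and Tmem120b (0.968 each) and Psmg2, a proteasome assembly chaperone (0.962). All arrays share their scaling, which moves genes together, and no p is given.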

How the data were processed

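The deposited scanner files give intensity for each spot of the 8 arrays. Per the file headers, the signal had its background subtracted in Agilent Feature Extraction 10.7.1.1. The authors' deposited series table holds a ratio; on the values it is the processed signal over 1 divisor for each array, close to the 75th percentile, and it served as an alternative. Spots of 1 probe were averaged, leaving out non-uniform ones, and a level is log2 of this mean minus log2 of the 75th percentile over all spots of that array except controls. RefSeq accessions in the files gave 27509 of 55681 probes (49.4%) a gene, through a table of assembly GRCm38.p6. A gene was read from its brightest probe and tested when above background on at least 2 arrays; 4 genes with a missing value on an array were left out.

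All 8 arrays entered each fit (limma 3.58.1, R 4.3.3). The terms were cell type, JAK2 and Ezh2 genotype without interaction; another fit had both genotypes within each cell type, and another their product. The fits were tested on simulated data. Where a group was below background on all its arrays, each was taken at its lowest signal above background or the probe's own if higher, and the fold is a lower bound; where on some, the fitted difference is given. Alternatives were other background correction, scaling, filters, probe rules, variance prior, threshold and design, and leaving out each array. The percentile over probes was added after seeing the data. The genes and lists were chosen with earlier results of these data known. Named are all 9 genes and up to 4 genes of a list each way with the largest called difference. The 6 genes most alike in each of 2 ways are named too, and Alas1, Slc25a28, Tfr2, Ireb2 and Aco1 always. Fth1, Ftl1 and cell type markers outside this rule, among them Flt3, Mecom and Procr, were named after their values were seen. Some genes that the rule picks are left out of the text and the plots.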

Additional observations from a re-analysis of the deposited data

How the results depend on the processing

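The count of genes called was 7 for MEP against LSK under 24 of 25 alternatives and 8 with no filter on dim probes, where Alas2 entered. Not all of these are separate checks. Stricter filters and raising dim values leave the levels of the 8 genes as they were. The authors' table holds nearly the same values, and the looser threshold can lose no call. For each of the 9 genotype comparisons the count was 0 under all 25. Each of the 7 calls held under every alternative, the widest ranges being 1.36 to 2.02 for Uros (limma, highest adjusted p = 0.0227) and 2.30 to 2.95 for Tfrc. The sign turned for Slc25a37 with its other probe (0.06), for Ireb2 with quantile normalization (-0.04) and with the percentile over probes above background on all arrays (-0.13), and on leaving out single arrays for Ireb2 (-0.12 to 0.14) and Slc25a28 (-0.11 to 0.08); the cause was not tested, and none of these was called. The median difference of all genes between MEP and LSK, 0.12, was 0.01 and -0.02 under those scalings, and 0.40 with no filter. No paired analysis was possible because each group had 1 array, as far as replicate numbers go. LSK and MEP arrays pair by genotype instead, and the fit with genotype as a 4-level block also called 7; of the other genes named, it lost Hmox1 (adjusted p = 0.0514). Of the lists, iron sensing had 2 genes called in place of 1 under 10 alternatives, and heme breakdown and transport 3 in place of 5 without the Ezh2Δ/Δ LSK array. Genes below background have a bound only.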
